A study of Homo sapiens with 12 samples.

Results

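KISS1, its receptor gene KISS1R and 6 further genes known as metastasis suppressors (CD82, NME1, BRMS1, NDRG1, MAP2K4 and PEBP1) were followed across A375 human melanoma cells that carried mutant forms of YAP. The 8 members were picked from 31585 distinct gene loci by symbol, and each was found at exactly 1 locus. The locus of NME1 also carries the symbols NME1-NME2 and NME2, and that of NDRG1 the symbol AX746885, so reads of those transcripts cannot be separated there. RNA was sequenced from 4 groups of 3 libraries. Control cells held the empty retroviral vector MSCV-IRES-Hygro. YAPS127A cells expressed YAP that LATS kinases cannot keep in the cytoplasm, and YAP2SA cells (S127A,S381A) expressed a form that also escapes LATS-triggered degradation. YAPS127A,S94A cells expressed the S127A form with a second change, S94A, that removes binding to the TEAD transcription factors. All cells, Control included, were stably transduced and selected with an antibiotic (the vector carries hygromycin resistance), and they still held their own YAP1 gene. The sources used here do not say whether the 3 libraries of a group came from separate transductions. The p-values therefore measure the spread between these libraries, which may be technical, and a construct and its transduced population cannot be told apart. A field in the records of the YAP2SA libraries also lists S94A, but their titles do not, and the titles were followed. KISS1 was known to be higher in YAP2SA cells when the members were chosen.

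Metastasis suppressors are genes that hold back the spread of tumor cells to other organs while having little effect on growth of the primary tumor. KISS1, first described in melanoma cells, encodes a secreted precursor that furin cuts into kisspeptins, the ligands of the G protein-coupled receptor KISS1R. The other members work inside the cell or at its surface. CD82 is a tetraspanin of the plasma membrane, NME1 is a nucleoside diphosphate kinase, and BRMS1 is a subunit of a SIN3-histone deacetylase corepressor. NDRG1 is induced by low oxygen and iron loss, MAP2K4 is a kinase that activates JNK and p38, and PEBP1 is a kinase inhibitor protein that restrains ERK signalling. YAP has no DNA-binding domain and reaches its target genes mainly through TEAD factors.

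KISS1 lies on the reverse strand of chromosome 1 at 204159469 to 204165619 (GRCh37). GOLT1A, transcribed in the same direction, lies behind it at 204167291 to 204183116, with its end facing KISS1 and its start on the far side. The RefSeq promoter table (GRCh38.p14) held 6 of the 8 members, all but KISS1R and NDRG1. The 250 bases before the start sites of KISS1 (chr1:204196492-204196741, reverse strand) and GOLT1A (chr1:204213989-204214238, reverse strand) are shown because both genes were higher in YAP2SA cells. Capitals mark matches on either strand to the SP1 motif GGGCGG, to the motif of the core promoter box, TATAAA, or to the AP-2 motif GCCNNNGGC.
KISS1: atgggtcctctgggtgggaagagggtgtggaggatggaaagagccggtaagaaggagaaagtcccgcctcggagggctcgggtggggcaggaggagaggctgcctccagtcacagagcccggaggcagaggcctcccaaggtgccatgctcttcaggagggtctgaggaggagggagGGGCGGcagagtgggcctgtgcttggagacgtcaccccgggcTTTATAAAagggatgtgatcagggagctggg
GOLT1A: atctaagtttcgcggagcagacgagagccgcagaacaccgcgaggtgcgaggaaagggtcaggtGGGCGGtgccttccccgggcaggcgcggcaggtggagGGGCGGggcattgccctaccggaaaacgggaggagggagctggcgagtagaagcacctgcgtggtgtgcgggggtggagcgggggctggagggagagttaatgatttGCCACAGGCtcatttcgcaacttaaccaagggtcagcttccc
In the KISS1 window GGGCGG occurred at -73 to -68 from the start site. TATAAA occurred at -29 to -24, and its overlapping reverse complement at -31 to -26. TATAAA was found in 10.7% and GGGCGG in 42.6% of 35116 promoters of the same length. The TEAD motif GGAATG, held by 11.9% of all promoters, had 0 matches in the windows of KISS1, CD82, NME1, BRMS1, MAP2K4, PEBP1 and GOLT1A. The AP-1 motif TGANTCA, held by 6.57% of promoters, had 1 match among these 7, in NME1. The AP-2 motif, held by 19.8% of promoters, had 1 match each in CD82, BRMS1 and GOLT1A and 0 in KISS1. These matches are descriptions of letters in a short window and do not show where a factor binds.

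Levels are FPKM, which normalizes fragments to transcript length and to mapped reads. Differences and their tests are on the deposited log2(FPKM + 1) scale, which understates changes of genes at low levels. YAP1 checks the labels, since reads from the vector and from the cells' own gene are counted together. It measured 34.1, 33.0 and 172 FPKM in the 3 Control libraries, and between 129.7 and 187 FPKM in the 9 libraries of YAP-expressing cells. The library labelled Control replicate 3 thus goes against its label for YAP1. Its KISS1 level of 0.581 FPKM and its SOX10 level of 281 FPKM lay within or just above the range of the other Control libraries. Both also lay within the range of the YAPS127A,S94A libraries (0.227 to 0.786 FPKM for KISS1, 250 to 287 FPKM for SOX10). These genes therefore cannot tell a Control library from a YAPS127A,S94A library, and the label remains unsettled. Values without this library are given where they bear on a result. Between 20161 and 20656 loci per library were above 0. Read depth is unknown because the values carry no counts. Of the melanoma markers, SOX10 averaged 263 FPKM in Control and 6.16 FPKM in YAP2SA cells, whereas S100B averaged 46.9 and 0.807 FPKM. MITF moved the other way, from 8.59 to 35.0 FPKM, and the pigment genes PMEL, MLANA, TYR, DCT and TYRP1 stayed under 1 FPKM in all 12 libraries. Of 8 markers of other cell types, the leukocyte gene PTPRC, the endothelial gene PECAM1 and the epithelial gene EPCAM were at or near 0 throughout, while COL1A1, KRT5 and LUM were higher and KRT14 and MYH11 lower in YAP2SA cells. In bulk RNA, fewer cells of a type and less RNA per cell cannot be told apart, and the part of these markers in the results below was not tested.

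KISS1 was nearly silent in Control and YAPS127A,S94A cells, moderately expressed in YAPS127A cells and abundant in YAP2SA cells. The 3 Control libraries measured 0.698, 0.132 and 0.581 FPKM. The 3 YAPS127A,S94A libraries measured 0.380, 0.786 and 0.227 FPKM, so that these groups overlapped. The 3 YAPS127A libraries measured 27.9, 21.3 and 25.4 FPKM, above every library of the groups before. The 3 YAP2SA libraries, at 154, 148 and 163 FPKM, lay above all others. Group means (± SD, n = 3) were 0.470 ± 0.299 FPKM in Control, 0.465 ± 0.289 in YAPS127A,S94A, 24.9 ± 3.36 in YAPS127A and 155 ± 7.36 in YAP2SA cells. In terms of rank, the mean of KISS1 exceeded 28.2% of the loci above 0 in Control cells, 81.8% in YAPS127A cells and 96.7% in YAP2SA cells. YAP2SA exceeded Control 330-fold and YAPS127A 6.24-fold, and YAPS127A exceeded Control 52.9-fold, given as description because the rise in YAP2SA cells led to the choice of KISS1. Both Control ratios rest on Control values below 1 FPKM, and without the library labelled Control replicate 3 they were 374-fold and 59.9-fold.

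**Figure D1:**
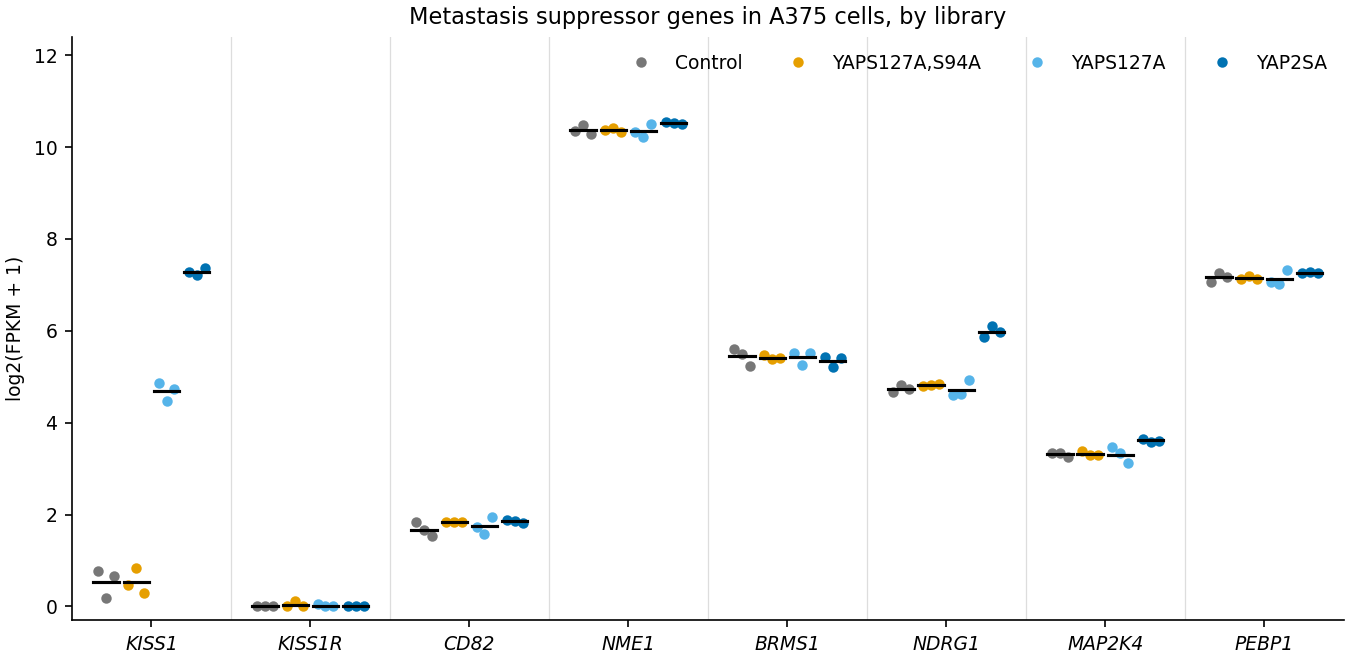
Level of each of the 8 members as log2(FPKM + 1) in every library, with points for the 3 libraries of a group and a black bar for their mean. KISS1 separates into 3 levels, from under 1 FPKM in Control and YAPS127A,S94A to between 148 and 163 FPKM in YAP2SA, NDRG1 is set apart in YAP2SA, and the remaining genes change little between groups.

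YAPS127A against YAPS127A,S94A compares cells whose YAP can bind TEADs with cells whose YAP cannot. Its group means share no library with the comparison that chose KISS1. The paper reports, however, that most genes changed in YAP2SA cells moved the same way, less strongly, in YAPS127A cells. A gene chosen for its rise in YAP2SA cells was thus likely to rise here too. KISS1 also passed the filter on low levels only through YAPS127A and YAP2SA libraries, where it was high. The spread in the test was estimated from all 12 libraries, so the p-value is not separate from those of YAP2SA and Control. The adjusted p and the ranks below are therefore given as description. These are transduced populations, and a difference between them other than TEAD binding cannot be told apart. KISS1 was 53.6-fold higher in YAPS127A cells by mean FPKM, a ratio that rests on YAPS127A,S94A values below 1 FPKM. On the log2 scale the difference was 4.15 (SE 0.17, 95% interval 3.77 to 4.54), and the Benjamini-Hochberg adjusted p in limma across 15055 loci was 3.7e-07. Over the alternative fits, which include one of only the libraries compared, the limma adjusted p was at most 2.6e-04. In this comparison 10.7% of all tested loci passed an adjusted p of 0.05 and 2.54% passed it with a more than 2-fold rise. Only 21 loci had a larger log2 difference than KISS1, led by small nucleolar RNA loci such as SNORD2, and 9 had a smaller p. Every library of YAPS127A lay above every library of YAPS127A,S94A, which held in 1 direction or the other for 29.4% of all loci. YAP1 itself measured 168 ± 16.5 FPKM in YAPS127A and 154 ± 6.73 FPKM in YAPS127A,S94A cells (SD, n = 3).

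The receptor gene showed no matching expression. KISS1R (chromosome 19, 917287 to 921005 on the forward strand) was listed at 0 in 10 of the 12 libraries and reached 0.0374 FPKM in 1 YAPS127A library and 0.0807 FPKM in 1 YAPS127A,S94A library. It was below the filter of at least 1 FPKM in at least 3 libraries and was not tested. Of 13 tested genes that process kisspeptin, degrade it or relay the signal of its receptor, 3 were higher and 5 lower in YAP2SA than in Control cells, where 42.3% of all loci passed the same test. FURIN, the protease that cuts the KISS1 precursor, fell from 37.2 to 20.9 FPKM (log2 change -0.80, SE 0.08, limma adjusted p 1.6e-05). Of the matrix metalloproteinases that can cleave kisspeptins, MMP2, MMP16 and MMP14 were lower, with MMP2 at 91.5 in Control and 37.4 FPKM in YAP2SA cells and MMP16 at 31.5 and 16.1 FPKM. MMP24 did not pass, at 2.21 and 2.57 FPKM (limma adjusted p 0.21). GNAQ, a G protein subunit through which KISS1R can signal, fell from 27.0 to 15.4 FPKM (limma adjusted p 3.4e-05). PLCB4 and ARRB2, a phospholipase and an arrestin of receptor signalling, rose by 0.70 and 0.62 on the log2 scale. The median of the 13 log2 differences was -0.03, beside 0.01 for all loci. YAPS127A,S94A against Control gave 0 genes of this list by limma, also at an unadjusted p under 0.05.

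Several named loci followed KISS1 closely over the 12 libraries. The 5 with the highest Pearson correlation to KISS1 on the log2 scale were UNC13D (r = 0.997), COL1A1 (0.996), BASP1 (0.995), CPA4 (0.994) and AP1M2 (0.994). These correlations describe 12 libraries that fall into 4 groups, and they mostly restate the group means. UNC13D, a factor of granule release, averaged 0.603 FPKM in Control, 0.372 in YAPS127A,S94A, 8.20 in YAPS127A and 36.3 in YAP2SA cells. COL1A1, a chain of type I collagen, averaged 0.322, 0.209, 7.27 and 33.4 FPKM in the same order. CPA4, a carboxypeptidase, had a higher floor, with 6.98, 4.49, 63.4 and 345 FPKM. Among the other members the closest to KISS1 was NDRG1 with r = 0.763, exceeded by 2569 named loci, followed by MAP2K4 (0.664) and NME1 (0.504).

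**Figure D2:**
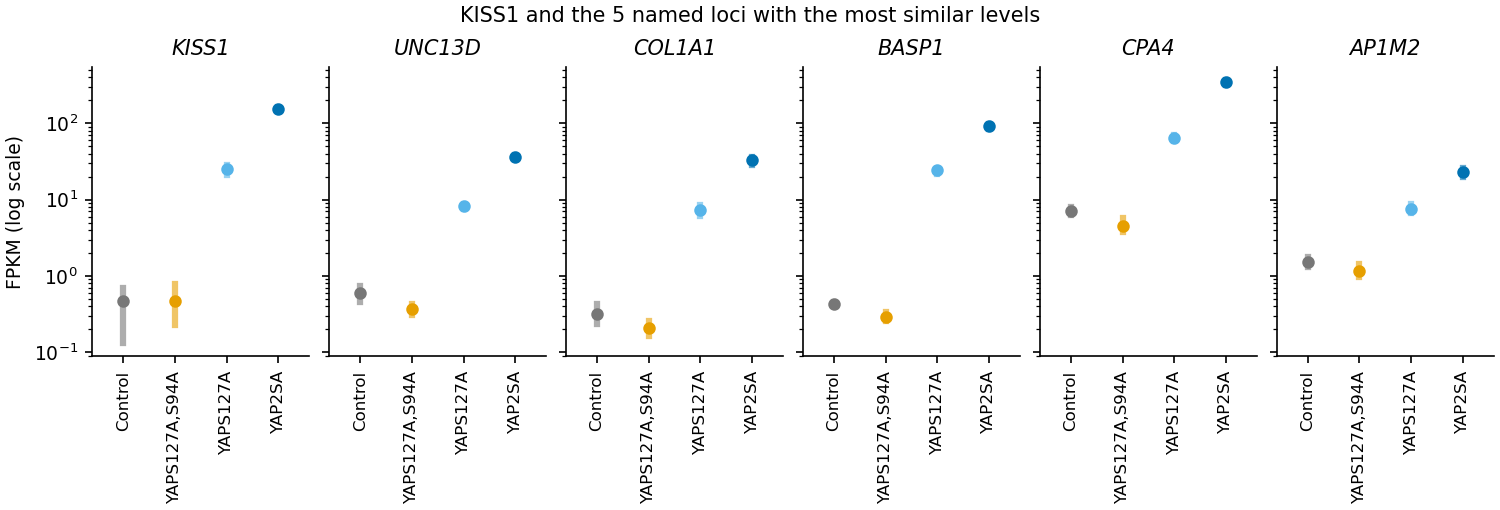
Mean FPKM on a log axis (points) with the range of the 3 libraries (bars) for KISS1 and the 5 named loci most correlated with it. All 6 genes step up from Control and YAPS127A,S94A to YAPS127A and again to YAP2SA, where KISS1 averages 155 FPKM and CPA4 345 FPKM.

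Of 4 factors known to regulate KISS1 transcription, TFAP2A alone passed the test in YAP2SA against Control and in YAPS127A against YAPS127A,S94A. TFAP2A, which encodes AP-2alpha, averaged 3.28 FPKM in Control and 13.0 FPKM in YAP2SA cells (log2 difference 1.72, SE 0.12, limma adjusted p 6.4e-07). In YAPS127A cells it averaged 5.87 FPKM against 3.58 in YAPS127A,S94A cells (0.58, SE 0.12, limma adjusted p 0.0097). SP1, MED23 and TXNIP did not pass in either comparison. A share of 1 in 4 is below the 42.3% of all loci in the first comparison, and 10.7% of all loci passed in the second. TXNIP was uneven within YAP2SA, at 3.47, 15.2 and 5.43 FPKM, and passed in YAP2SA against Control without YAP2SA replicate 1, which made the count 2 of 4.

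The genes around KISS1 on chromosome 1 did not all share its pattern. GOLT1A (204167291 to 204183116) is separated from KISS1 by 1671 bases. It measured 2.64, 1.78 and 2.26 FPKM in YAP2SA and between 0.198 and 0.546 FPKM in Control libraries, and passed the filter only through YAP2SA. In YAPS127A cells GOLT1A, at 0.915, 0.597 and 0.0996 FPKM, overlapped the range of YAPS127A,S94A cells (log2 difference 0.33, limma adjusted p 0.36). PLEKHA6, 22361 bases from KISS1, came closest to the KISS1 pattern. It averaged 0.130 FPKM in Control, 0.0252 in YAPS127A,S94A, 2.62 in YAPS127A and 7.40 in YAP2SA cells. The log2 difference of PLEKHA6 was 2.83 (SE 0.22, limma adjusted p 2.2e-06) in YAP2SA against Control and 1.81 (limma adjusted p 4.9e-04) in YAPS127A against YAPS127A,S94A. PLEKHA6 reached at most 0.254 FPKM in Control and 0.0490 FPKM in YAPS127A,S94A libraries. It thus passed the filter only through the groups where it was high, and its adjusted p-values are given as description. ETNK2, on the opposite side of KISS1, rose less, from 8.37 to 11.6 FPKM in YAP2SA cells (0.43, limma adjusted p 1.7e-04). SOX13 and PPP1R15B, the outermost genes examined, did not pass the test in any comparison. The GOLT1A difference in YAP2SA cells is given without a test, since a gene that passes the filter only where it is high had to differ. In YAP2SA against Control 22.9% of all loci were called higher, which is the background for PLEKHA6 and ETNK2. Without the library labelled Control replicate 3 both passed again, PLEKHA6 at 2.91 and ETNK2 at 0.46 on the log2 scale.

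**Figure D3:**
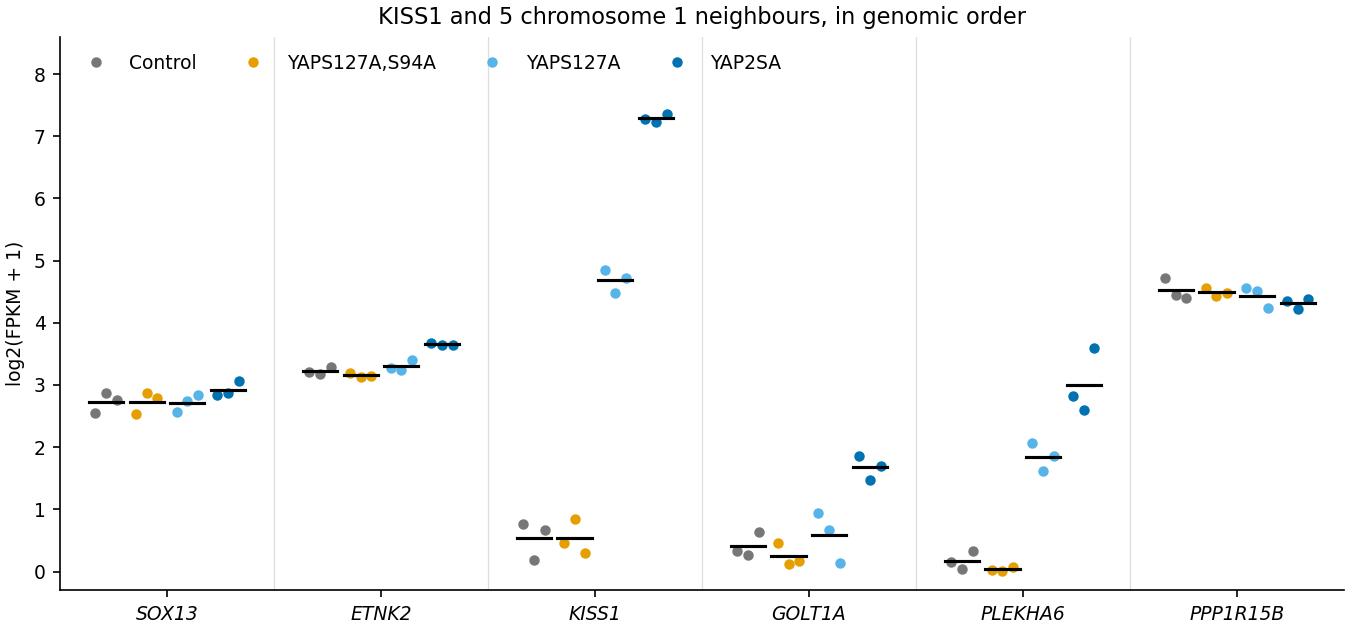
KISS1 and 5 neighbouring genes on chromosome 1 in genomic order, as log2(FPKM + 1) in each of the 12 libraries with the group mean as a black bar. PLEKHA6 steps up with YAPS127A and YAP2SA as KISS1 does, GOLT1A is raised in YAP2SA, and SOX13 and PPP1R15B change little.

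Of the 6 tested members other than KISS1, 2 differed between YAP2SA and Control cells, NDRG1 and MAP2K4, both higher. This share is not above the 42.3% of all loci that passed the same test. The same count, 2 of 6, was reached in YAP2SA against YAPS127A (32.8% of all loci) and in YAP2SA against YAPS127A,S94A (43.5%). By limma 0 of 6 passed in YAPS127A against Control (6.31% of all loci), in YAPS127A,S94A against Control (0.179%) and in YAPS127A against YAPS127A,S94A (10.7%), and 0 also passed an unadjusted p of 0.05 in these comparisons. Their log2 differences there ran from -0.03 to 0.07, from -0.02 to 0.16 and from -0.10 to 0.01, and their 95% intervals lay between -0.32 and 0.40.

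**Figure D4:**
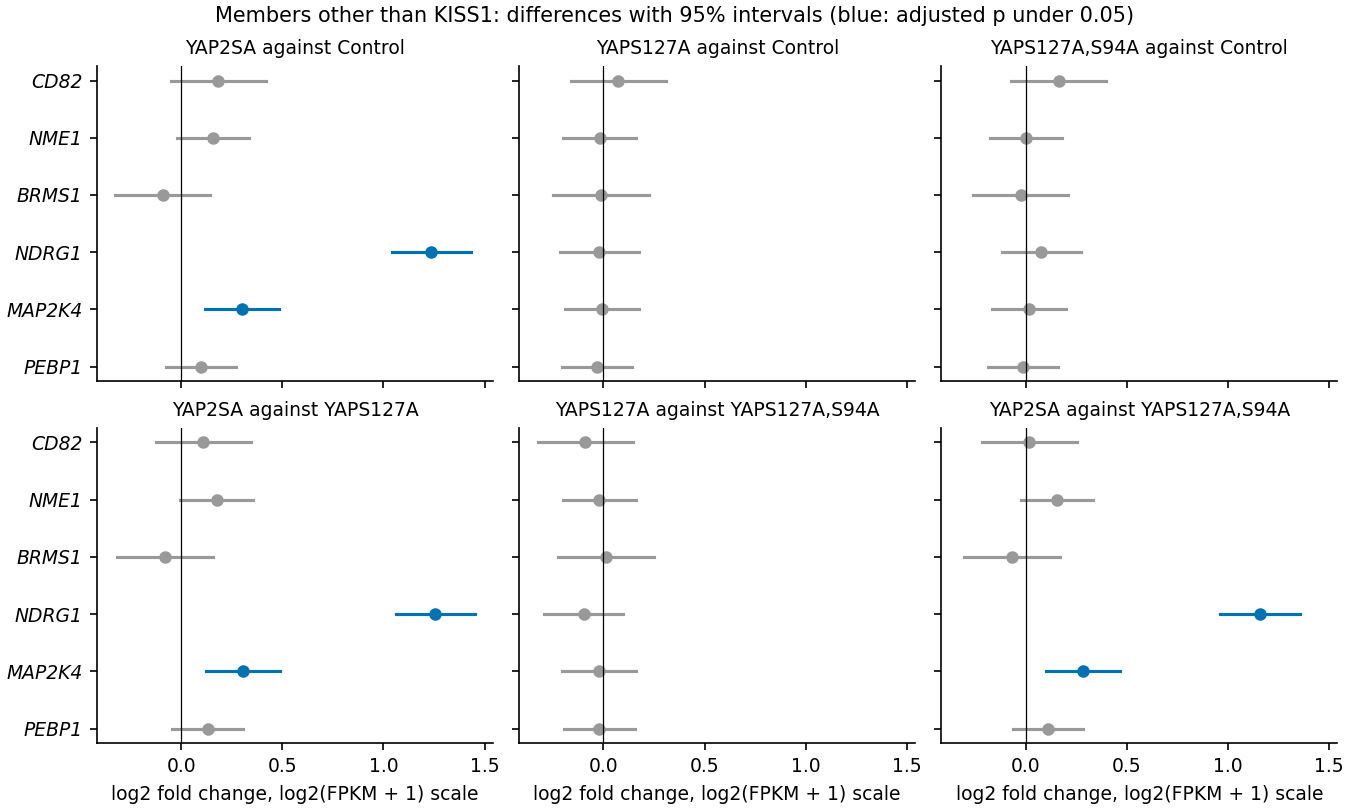
Log2 fold change (points) with 95% limma intervals (lines) of the 6 tested members other than KISS1 in the 6 comparisons, blue where the adjusted p is under 0.05. NDRG1 and MAP2K4 lie to the right of 0 in the 3 comparisons with YAP2SA, and the intervals of the other 4 genes include 0 in all panels.

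NDRG1 (chromosome 8, 134249418 to 134314265 on the reverse strand) was raised in YAP2SA cells alone. It measured 57.1, 67.4 and 62.0 FPKM in YAP2SA libraries, while the other 9 libraries lay between 23.4 and 29.3 FPKM. The increase was 2.41-fold over Control (log2 difference 1.24, SE 0.09, limma adjusted p 1.1e-06), 2.44-fold over YAPS127A (limma adjusted p 1.8e-06) and 2.28-fold over YAPS127A,S94A (limma adjusted p 1.7e-06). YAPS127A cells, which did raise KISS1, averaged 25.5 ± 3.29 FPKM of NDRG1 against 25.8 ± 1.42 in Control (SD, n = 3). Of 3 tested relatives of NDRG1, 2 were lower in YAP2SA than in Control cells, where 19.5% of all loci were called lower. NDRG2 averaged 4.86 FPKM in Control and 2.27 in YAP2SA cells (limma adjusted p 1.1e-04), NDRG4 averaged 5.71 and 3.41 FPKM (limma adjusted p 0.0033), and NDRG3 did not pass. NDRG2 was also lower in YAPS127A than in YAPS127A,S94A cells, at 3.32 against 5.47 FPKM (limma adjusted p 0.0068). NDRG1 is known as a hypoxia-responsive gene, and of 9 tested hypoxia-induced genes 3 were higher and 2 lower in YAP2SA than in Control cells, beside 42.3% of all loci that passed in either direction. ADM, the vasodilator adrenomedullin, rose from 8.01 to 52.4 FPKM, SLC2A1, the glucose transporter, from 51.2 to 94.1 FPKM, and BNIP3, a mitophagy receptor, from 55.6 to 87.6 FPKM. VEGFA, the angiogenic growth factor, averaged 12.7 and 114.6 FPKM but did not pass (log2 difference 1.30, SE 1.03, limma adjusted p 0.35). The 9.03-fold ratio of its means far exceeds this log2 difference, so its libraries were uneven and the YAP2SA mean does not describe each of them. KDM3A and BHLHE40 fell by 0.58 and 0.52 on the log2 scale. The median of the 9 was 0.09.

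MAP2K4 (chromosome 17, 11924146 to 12047147 on the forward strand) showed a small rise in YAP2SA cells. The 3 libraries measured 11.4, 11.0 and 11.2 FPKM, above the 9 others, which lay between 7.66 and 10.1 FPKM. The mean was 1.26-fold that of Control (log2 difference 0.30, SE 0.08, limma adjusted p 0.013). The adjusted p in limma was 0.016 against YAPS127A and 0.017 against YAPS127A,S94A. With only the 6 libraries of YAP2SA and YAPS127A in the fit, the adjusted p was 0.073. Against YAPS127A,S94A it was 0.051, 0.060 and 0.052 in limma without YAPS127A,S94A replicate 2, YAPS127A,S94A replicate 3 and YAP2SA replicate 1. Around MAP2K4 in the JNK and p38 cascade, 3 of 9 tested genes passed in YAP2SA against Control, a share below the 42.3% of all loci. JUN, a transcription factor phosphorylated by JNK, was the main one, at 4.85 FPKM in Control and 32.3 in YAP2SA cells (log2 difference 2.51, SE 0.09, limma adjusted p 5.8e-09), and it was also higher in YAPS127A than in YAPS127A,S94A cells, at 12.3 against 3.63 FPKM (limma adjusted p 3.9e-06). MAP2K6, which activates p38, fell from 7.07 to 3.18 FPKM. MAPK9, which encodes JNK2, differed by 0.37 with a limma adjusted p of 0.028 that was above 0.05 in 4 refits, at 0.073 with only the libraries compared, 0.103 without Control replicate 1, 0.072 without the library labelled Control replicate 3 and 0.106 without YAP2SA replicate 2.

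CD82, NME1, BRMS1 and PEBP1 did not pass the test in any comparison. The NME1 locus was among the most abundant, at 1325 ± 95.8 FPKM in Control and 1474 ± 23.5 in YAP2SA cells (SD, n = 3). Its YAP2SA libraries (1498, 1473 and 1451 FPKM) lay above the Control libraries (1308, 1428 and 1239 FPKM), with a log2 difference of 0.16 (95% interval -0.02 to 0.34, limma adjusted p 0.15). PEBP1 measured 151, 155 and 151 FPKM in YAP2SA against 133, 151 and 144 FPKM in Control libraries, a log2 difference of 0.10 (95% interval -0.08 to 0.27, limma adjusted p 0.35). For 4 of the 6 genes (NME1, PEBP1, NDRG1 and MAP2K4) YAP2SA and Control libraries did not overlap, which held for 52.8% of all loci. For PEBP1 the groups nearly touched, with the highest Control library at 151.0 and the lowest YAP2SA library at 151.2 FPKM. CD82 was low everywhere, between 1.89 and 2.85 FPKM, and differed by 0.18 in YAP2SA against Control (95% interval -0.05 to 0.42, limma adjusted p 0.19). BRMS1 lay between 35.9 and 47.4 FPKM and differed by -0.09 (95% interval -0.33 to 0.14, limma adjusted p 0.52). Without YAPS127A replicate 3, the highest of its group for NME1 and PEBP1, both genes passed in YAP2SA against YAPS127A (limma adjusted p 0.030 and 0.013).

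The relatives and partners of CD82, NME1 and BRMS1 gave small differences. Of 9 tetraspanins other than CD82, 4 were higher and 3 lower in YAP2SA than in Control cells, all by less than 2-fold, where 42.3% of all loci passed in either direction. CD9 rose from 61.9 to 100.2 FPKM and CD63, a marker of late endosomes and exosomes, fell from 506 to 386 FPKM. Of 4 other NME genes tested 2 passed, both higher, where 42.3% of all loci passed in either direction. NME4, a mitochondrial member, rose from 125.2 to 214 FPKM and NME7 from 22.1 to 28.9 FPKM. Of 13 subunits of the BRMS1 corepressor complex 2 passed, a share below that of all loci. RBBP7, a histone-binding protein, rose from 102.2 to 147.6 FPKM and ING2, a reader of methylated histone H3, from 10.3 to 19.5 FPKM, while SIN3A, HDAC1 and HDAC2 did not pass. Without YAPS127A replicate 3, and with median-ratio scaling or quantile normalization, the count was 4, with HDAC1 and ING1 added as lower.

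A further 20 genes described as metastasis suppressors in various tumors were examined beside the members, and 16 passed the filter on low levels. In YAP2SA against Control, 5 were higher and 4 lower, beside 22.9% and 19.5% of all loci. DAPK1, a kinase that promotes cell death, rose from 1.41 ± 0.209 to 11.8 ± 0.360 FPKM, and DLC1, a GTPase-activating protein, rose from 4.05 to 23.3 FPKM. TIMP2, an inhibitor of metalloproteinases, measured between 29.0 and 36.7 FPKM in Control and between 99.0 and 100.8 FPKM in YAP2SA libraries. ARHGDIB, a GDP dissociation inhibitor of small GTPases, rose by 1.01 on the log2 scale. CDH11, a mesenchymal cadherin, averaged 0.184 FPKM in Control and 2.71 FPKM in YAP2SA cells, but it passed the filter on low levels only with the help of the YAP2SA libraries, so its call there had to follow. In the other direction, GSN, the actin-severing protein gelsolin, fell from 288 to 25.9 FPKM (log2 change -3.43, SE 0.12, limma adjusted p 5.4e-09). TIMP3 fell from 160.1 to 63.2 FPKM, AKAP12, a scaffold for protein kinases, from 85.1 to 37.7 FPKM, and MAP2K6 also belongs to this list. All 9 exceeded a 2-fold difference in mean FPKM, and the median of the 16 log2 differences was 0.15. In YAPS127A against YAPS127A,S94A the 5 genes DLC1, ARHGDIB, DAPK1, CDH11 and TIMP2 were higher, with log2 differences of 1.28, 1.17, 1.01, 0.66 and 0.62 and limma adjusted p-values from 3.1e-05 to 0.0056, where 6.36% of all loci were called higher. GSN, TIMP3, AKAP12 and MAP2K6 did not pass there. YAPS127A,S94A against Control gave 0 of 16 by limma, and 1 at an unadjusted p under 0.05.

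**Figure D5:**
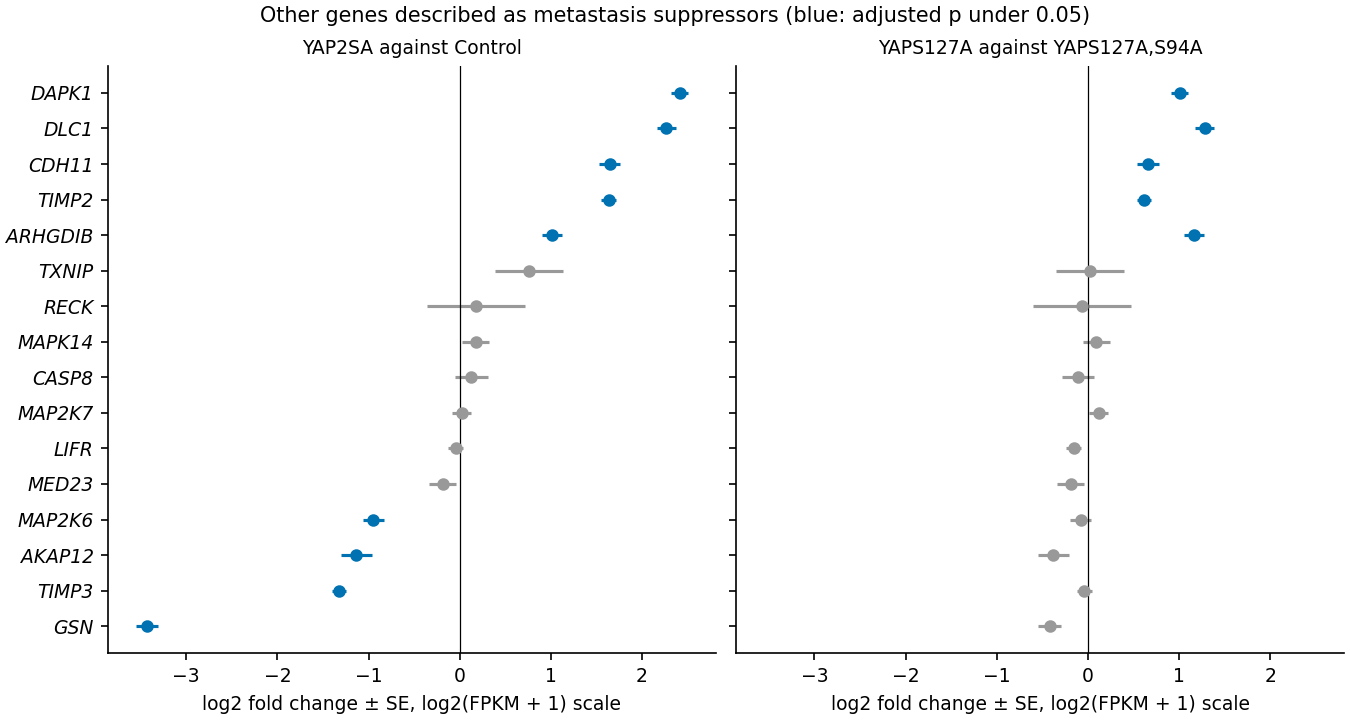
Log2 fold change (points) with its SE (bars) of the 16 tested genes described elsewhere as metastasis suppressors, in YAP2SA against Control (left) and YAPS127A against YAPS127A,S94A (right), blue where the adjusted p is under 0.05. DAPK1, DLC1, CDH11, TIMP2 and ARHGDIB are blue in both panels and to the right of 0, whereas MAP2K6, AKAP12, TIMP3 and GSN are blue to the left of 0 in the left panel only.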

How the data were processed

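RNA from 12 A375 libraries was sequenced. The authors converted reads with bcl2fastq 2.15.0, aligned them to hg19 with Bowtie2 2.0.0 and TopHat2 2.0.4, assembled transcripts with Cufflinks 2.0.2, and deposited log2(FPKM + 1) per locus. No counts could be recovered from the steps between low values, and 3 identical entries of 31588 were removed. Loci with at least 1 FPKM in at least 3 libraries (15055) were tested on the deposited log2 values with limma 3.58.1 (R 4.3.3), 1 mean per group, intensity trend, Benjamini-Hochberg adjustment. On simulated data for YAPS127A against YAPS127A,S94A, 189 of 200 changed loci were called in the right direction and 8 unchanged loci were called among 15055. The simulated noise was normal, with the spread that limma estimated, and changes were placed only in loci above a low level. The simulation therefore does not cover genes that start near 0, such as KISS1 and PLEKHA6. Figures used Python 3.11.15 and matplotlib 3.10.9. Members and gene lists were chosen with earlier results of these data known. Named were the members, YAP1, the 5 loci most correlated with KISS1, the marker genes, and from each list up to 4 genes with the largest change past the test. Outside this rule, further list genes such as MAP2K6, ARHGDIB and the genes that did not pass were named after their values were seen. Coordinates are from GENCODE (GRCh37). Alternatives covered the pseudocount, filters, scaling, libraries fitted, trend, thresholds, the replicate block and each library left out. Some genes of the lists are not reported here.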

Additional observations from a re-analysis of the deposited data

How the results depend on the processing

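The KISS1 difference between YAPS127A and YAPS127A,S94A passed the limma test under every alternative run, with log2 differences from 4.03 to 5.58 and adjusted p from 2.4e-07 to 2.6e-04. With a pseudocount of 0.1, the KISS1 log2 differences were 8.27 in YAP2SA against Control, 5.63 in YAPS127A against Control and 8.23 in YAP2SA against YAPS127A,S94A. The count of 2 members in YAP2SA against Control became 1 with a fold over 2 in addition or an adjusted p under 0.01, as it did against YAPS127A and against YAPS127A,S94A. Against YAPS127A it was also 1 with only the libraries compared. Leaving out 1 library gave counts from 2 to 4 against YAPS127A, with 4 without YAPS127A replicate 3, and from 1 to 2 against YAPS127A,S94A, with 1 without YAPS127A,S94A replicate 2, YAPS127A,S94A replicate 3 or YAP2SA replicate 1. The cause was not tested, beyond the fewer libraries in these fits. Counts of 0 remained 0 throughout. Differences given as a range were refitted 475 times, changed sign 37 times, and passed the test 0 times. Of 59 calls for genes of the lists, refitted 1176 times, 27 refits lost the call, and 0 changed sign. Deviations of same-numbered libraries from their group means correlated weakly, from -0.149 to 0.163. Between replicate 1 libraries all correlations were above 0, from 0.0344 to 0.126, whereas replicates 2 and 3 gave both signs. Such values with 3 libraries per group cannot settle whether the replicate numbers mark a shared batch. With the replicate block the counts were 2, 2 and 2 in the comparisons with YAP2SA and 0 in the rest, and KISS1 differed by 4.15. CD82 gave no value under the filter of 5 FPKM. Summing loci of the same symbol changes nothing for the members and was not run. Added after seeing the data were the counts of each list without the library labelled Control replicate 3, which lowered the JNK and p38 cascade from 2 higher to 1 in YAP2SA against Control. Read depth is unknown, so detection limits could not be set for low values such as those of KISS1R.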
